A study of Triticum monococcum with 54 samples.

Results

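The 106 genes described here stood highest in the oldest grain that was sampled, at 600 °Cd. A degree day (°Cd) is a unit of summed temperature, and stages were counted in it from the flowering of the plant (anthesis). The genes were chosen on grain of unfed plants, labelled N-S-. Of 32047 accessions in the complete tables, the 13739 that lie beyond the rows of the N+S- table used here were considered, so this step selects by identifier and not by expression. The 60 of these with the highest stage mean were set aside. An accession was then kept if its N-S- mean was highest at 600 °Cd, reached at least 20 normalized CPM (the authors' library-scaled count), and was at least 2 times the highest of the other 5 stage means after 1 had been added to both. The 106 that passed are fewer than the 150 the rule allowed, so no ranking among them was needed. The rule used all 18 N-S- libraries, so the N-S- course is described without a test. Tests were run on N+S+ libraries, which the rule did not use.

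In cereal grain the starchy endosperm first divides and enlarges, then fills with starch and storage protein, and finally loses water while the seed matures. Late in this course the embryo and the aleurone, the outer living layer of the endosperm, acquire tolerance of drying under abscisic acid, whereas starchy endosperm cells die. Sulfur enters the grain's storage proteins through cysteine and methionine, and nitrogen supply sets how much protein is laid down. The files pair no TmLoc identifier with a gene name, so none of the 106 genes can be given a role. The tissue label could not be checked against marker genes for the same reason.

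Grain of einkorn (Triticum monococcum ssp. monococcum), a diploid wheat kept in a greenhouse, gave the polyadenylated RNA that was sequenced. All plants received demineralized water alone until anthesis, and nutrient solutions were given from 200 to 700 °Cd. The N-S- plants had a solution with neither nitrogen (N) nor sulfur (S) and were sampled at 100, 200, 300, 400, 500 and 600 °Cd, the first of these before any solution was given. The N+S+ plants had 6 mM N and 2 mM S and were sampled at 300, 400, 500 and 600 °Cd. Each group had 3 biological replicates, which makes 30 of the 54 libraries of the series. The labels do not say how many plants made up a replicate, so p-values measure the spread between these samples. In bulk RNA of the grain, a change in the number of cells of a type and a change in RNA per cell cannot be told apart.

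The 30 libraries held 1344965 to 5356417 counts each. Sequencing lane went with stage: 100, 200 and 300 °Cd shared a lane, 400 °Cd of both treatments and 500 °Cd of N-S- grain shared the next, and 500 °Cd of N+S+ grain and all of 600 °Cd shared the last. The step from 500 to 600 °Cd therefore lay within a lane in N+S+ grain and crossed lanes in N-S- grain. The 3 N-S- libraries of 500 °Cd stood apart in correlation and in the number of accessions with a count. Their correlation with each other, across genes on log2(normalized CPM + 1), was 0.910 to 0.922, and no other group fell below 0.952. Counts were present in these libraries for 14657 to 16112 accessions, and in every other library for at least 16215, the value of N+S+ replicate 2 of 600 °Cd. By another measure they did not stand apart. Their replicates differed by 7.55 to 12.3 times the chi-square that sampling alone gives, and those of N+S+ grain at 600 °Cd by 6.99 to 12.3 times. For 87 of the 106 genes 500 °Cd was the second highest N-S- stage, so the ratio that chose them rests on the N-S- libraries of 500 °Cd. With replicate 1, 2 or 3 of that group left out, 83, 79 and 92 of the 106 were chosen again. Replicates of 600 °Cd mattered as much, with 85, 103 and 79 chosen again. The sets also changed in size. They held 95, 88 and 129 accessions without a replicate of 500 °Cd, and 85, 150 (the cap) and 89 without one of 600 °Cd.

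As chosen, the genes were low in young unfed grain and climbed late. The median of the 106 N-S- stage means was 5.16 normalized CPM at 100 °Cd, 4.37 at 200, 6.11 at 300, 10.2 at 400, 19.4 at 500 and 53.5 at 600 °Cd. The ratio of 600 °Cd to the highest other stage had a median of 2.39. It exceeded 10 in 2 genes and was at least 5 in 8 and at least 3 in 26. Most of the set thus lies close to the limit. The last members were TmLoc027990 with a ratio of 2.01 and TmLoc031270 with 2.01. The nearest accessions left out were TmLoc027823 with 1.99, at 32.6 ± 10.9 normalized CPM at 600 °Cd and 15.9 ± 5.61 at 500 °Cd (SD, n = 3), and TmLoc030174 with 1.98. In 77 genes the N-S- mean increased at each step from 300 to 600 °Cd.

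**Figure D1:**
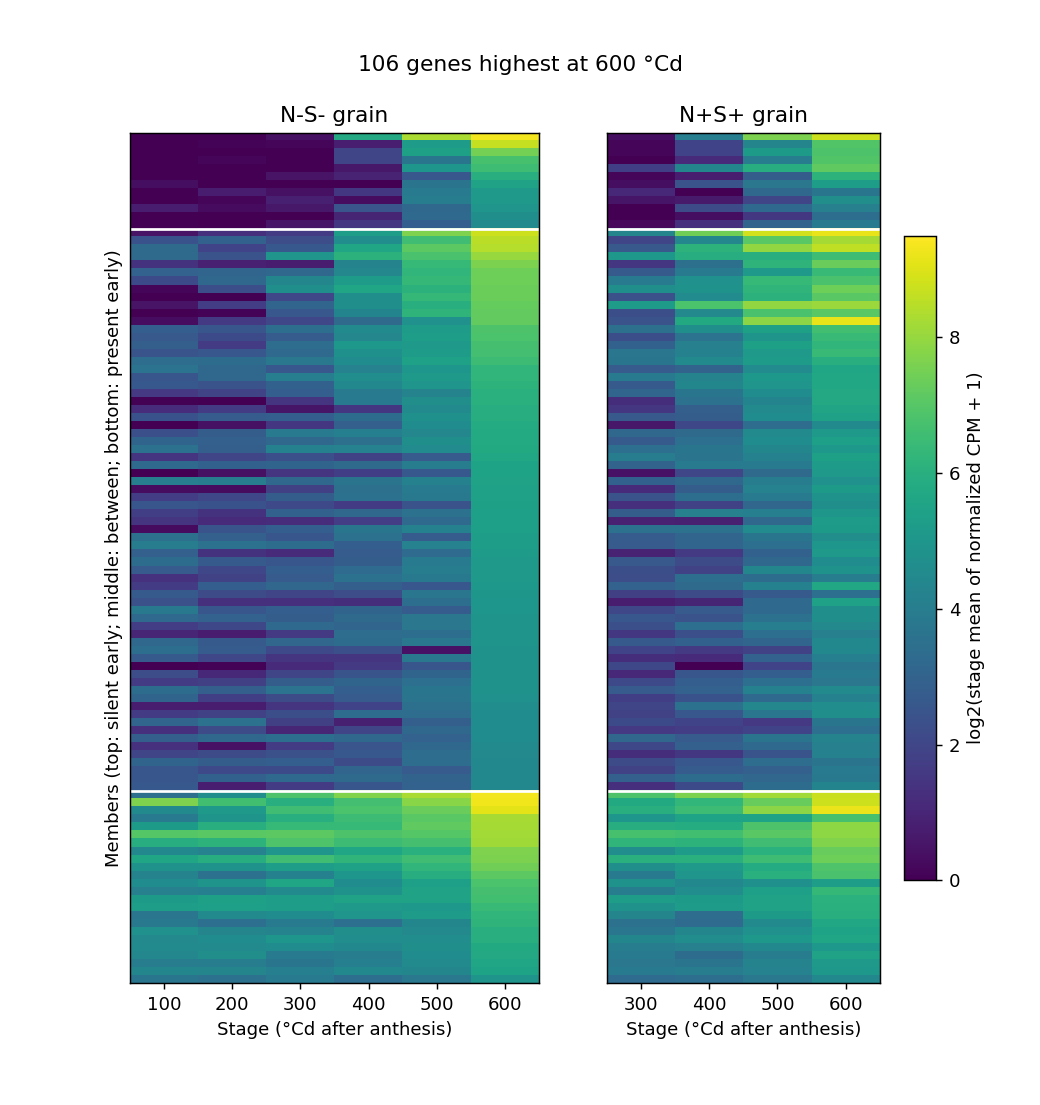
Stage means of the 106 genes (rows) as log2(normalized CPM + 1), mean of 3 libraries, for N-S- grain (left) and N+S+ grain (right), with stage in °Cd on the horizontal axis. White lines part the 12 genes silent to 300 °Cd, 70 between and 24 present throughout; the brightest column is 600 °Cd in both treatments.

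The genes differed in how they stood in young grain. In 12 genes the N-S- mean stayed under 1 normalized CPM at 100, 200 and 300 °Cd, in 24 it was at least 10 at all 3 of these stages, and 70 lay between. These limits were set with the values known. N+S+ grain at 300 °Cd, which played no part in the division, fell along similar but less sharp lines. There 10 of the 12 silent genes had a mean under 1, and 23 of the 24 present genes had a mean of at least 10. Of the 70 between, 5 had a mean under 1 and 12 a mean of at least 10. The silent genes had medians of 0.14, 2.08, 10.6 and 54.7 normalized CPM at 300, 400, 500 and 600 °Cd in N+S+ grain. The present genes had medians of 25.0, 31.9, 43.5 and 73.1 over the same stages. The first group thus passed from near zero to a middling level, and the second started from a level it already held.

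TmLoc037404 had the largest ratio of all, 10.7. Summed over 3 libraries it had 0 counts at 100 °Cd, 1 at 200, 1 at 300 and 3 at 400 °Cd in N-S- grain. At 500 °Cd its N-S- libraries read 0, 9.55 and 101 normalized CPM, and at 600 °Cd 547, 206 and 461. The 3 N-S- libraries of 500 °Cd therefore ran from no count to 186 counts. The N+S+ libraries stood at 2.07, 5.28 and 0.968 at 400 °Cd, at 14.1, 35.2 and 8.02 at 500 °Cd, and at 105, 102 and 151.9 at 600 °Cd. The groups of 500 and 600 °Cd did not overlap in N+S+ grain, and the gene was 6.31-fold higher at 600 °Cd (log2 fold change 2.66 ± 0.33 SE). The p from edgeR's quasi-likelihood test, adjusted by Benjamini-Hochberg over all genes tested, was 1.31e-05.

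TmLoc035550, second by ratio, was still low at 500 °Cd in both treatments. Its N-S- libraries held 65.0, 48.1 and 76.2 normalized CPM at 600 °Cd and 6.87, 8.18 and 0 at 500 °Cd. Its N+S+ libraries held 68.5, 58.4 and 84.3 at 600 °Cd and 7.06, 6.86 and 3.77 at 500 °Cd. The stages did not overlap in either treatment, though N-S- values had chosen the gene. The gene was high enough for the expression filter only through the 600 °Cd libraries, which favours a difference. Its fitted N+S+ difference, 11.9-fold (3.57 ± 0.33 SE on the log2 scale), is therefore given without a test. TmLoc027755 had no count in any of the 3 N+S+ libraries at 300 °Cd. At 600 °Cd it held 68.9, 45.7 and 246 normalized CPM, at least 444-fold higher against a floor of 3 counts over the 300 °Cd group. At 500 °Cd it held 15.0, 17.8 and 11.3, and the rise over that last step was 8.23-fold (edgeR adjusted p = 8.93e-05). The stages did not overlap, but replicate 3 of 600 °Cd stood far above the other two. Without it the bound against 300 °Cd was at least 211.9-fold and the last step 3.92-fold (edgeR adjusted p = 0.000935).

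TmLoc036600 had the highest N-S- mean of the 106 at 600 °Cd, not adjusted for length, and at 400 °Cd it was the highest of the silent genes. Its N-S- libraries held 48.3, 40.4 and 67.8 normalized CPM at 400 °Cd, 280, 281 and 376 at 500 °Cd, and 735, 417 and 761 at 600 °Cd. The N+S+ libraries held 12.4, 8.80 and 25.6 at 400 °Cd, 171, 261 and 151.9 at 500 °Cd, and 360, 391 and 549 at 600 °Cd. No 600 °Cd library overlapped 500 °Cd in either treatment, though N-S- values had chosen the gene. The N+S+ step was 2.25-fold (1.17 ± 0.23 SE on the log2 scale, edgeR adjusted p = 0.00177; DESeq2 adjusted p = 0.0564).

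Genes present from the start traced a different course. The N-S- medians of the 24 were 21.3, 24.7, 34.3, 32.8, 43.2 and 107 normalized CPM from 100 to 600 °Cd. TmLoc029395 had 210, 187 and 210 normalized CPM in N-S- grain at 100 °Cd, 68.7, 49.5 and 69.5 at 300 °Cd and 753, 395 and 755 at 600 °Cd. It was high in the youngest grain, lower at 300 °Cd and highest in the oldest, an early fall that the group medians did not show. The N+S+ mean was 53.9 ± 6.02 at 300 °Cd, 76.8 ± 6.99 at 400, 155 ± 36.4 at 500 and 441 ± 185 at 600 °Cd (SD, n = 3 each). The N+S+ step from 500 to 600 °Cd was 2.87-fold (log2 fold change 1.52 ± 0.21 SE, edgeR adjusted p = 2.68e-05). TmLoc028269 rose by 2.63-fold over that step (log2 fold change 1.39 ± 0.18, edgeR adjusted p = 1.94e-05) and was already at 21.7 ± 8.02 normalized CPM at 100 °Cd and 34.6 ± 4.37 at 200 °Cd in N-S- grain (SD, n = 3 each). In 36 of the 106 genes the N-S- mean was higher at 100 than at 300 °Cd.

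TmLoc037250 had the lowest N-S- level at 500 °Cd relative to 600 °Cd. Its N-S- mean was 9.69 ± 3.50 normalized CPM at 100 °Cd, 5.85 ± 0.79 at 200, 3.33 ± 1.49 at 300, 3.93 ± 4.55 at 400, 0.36 ± 0.63 at 500 and 28.8 ± 7.41 at 600 °Cd (SD, n = 3 each). It had 191 counts in all at 600 °Cd and 2 at 500 °Cd in N-S- grain. In N+S+ grain it held 15.2, 6.81 and 39.9 normalized CPM at 600 °Cd and 2.49, 3.20 and 1.89 at 500 °Cd. The fitted N+S+ difference was 8.13-fold (log2 fold change 3.02 ± 0.61 SE), and the log2 fold change was 2.10 without replicate 3 of 600 °Cd. This gene too met the expression filter only through the 600 °Cd libraries, so no test is given.

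**Figure D2:**
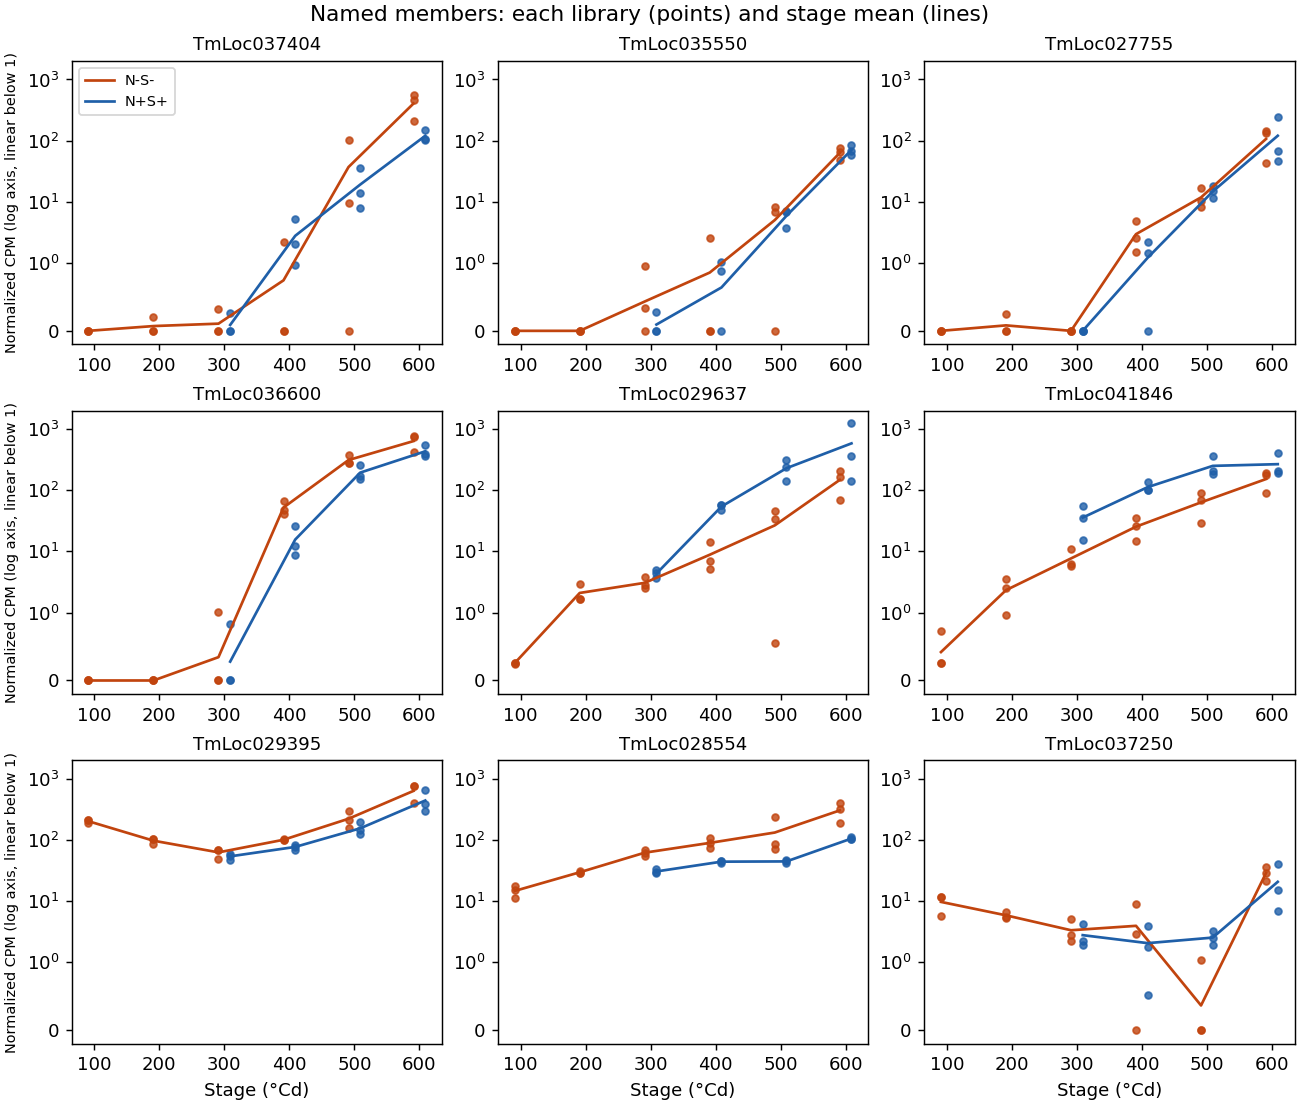
Normalized CPM (log axis, linear below 1) of 9 named genes by stage in °Cd; points are single libraries and lines join means of 3 libraries, N-S- in orange and N+S+ in blue. TmLoc037404, TmLoc035550 and TmLoc027755 start from 0 or nearly 0, TmLoc029395 dips at 300 °Cd, and TmLoc041846 overlaps between 500 and 600 °Cd in N+S+ grain.

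The remaining genes singled out by ratio or step differed in how evenly their replicates rose. TmLoc028774 held 28.7, 34.4 and 40.7 normalized CPM at 600 °Cd in N+S+ grain and 10.4, 8.23 and 7.55 at 500 °Cd, a rise of 3.99-fold (edgeR adjusted p = 0.00061). TmLoc033343 held 28.7, 30.2 and 63.9 at 600 °Cd and 12.9, 32.9 and 4.72 at 500 °Cd in N+S+ grain, overlapping (log2 fold change 1.30 ± 0.45 SE, edgeR adjusted p = 0.0672). In N-S- grain, where it was chosen for such a gap, the same gene did not overlap. It held 52.1, 59.6 and 41.1 at 600 °Cd and 4.81, 8.18 and 3.82 at 500 °Cd.

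TmLoc033237 held 7.39, 15.2 and 51.2 normalized CPM at 600 °Cd and 2.49, 3.20 and 3.30 at 500 °Cd in N+S+ grain. Its fitted log2 fold change was 3.05 ± 0.63 SE, and 1.93 without replicate 3 of 600 °Cd. It had at most 7 counts in any earlier N+S+ library and met the filter only through 600 °Cd, so no test is given. TmLoc027990, at the limit of the rule, climbed evenly instead. Its N-S- means were 10.5, 24.4, 113.9, 208.4, 315.7 and 636.5 normalized CPM over the 6 stages. In N+S+ grain it held 447, 407 and 413 at 600 °Cd and 298, 329 and 246 at 500 °Cd, a rise of 1.46-fold (edgeR adjusted p = 0.0215). It missed the threshold without replicate 1 of 600 °Cd (edgeR adjusted p = 0.0559) and without replicate 1 (edgeR adjusted p = 0.0758) or 3 (edgeR adjusted p = 0.159) of 500 °Cd.

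TmLoc031270, the last by ratio, had N-S- libraries of 14.1 to 37.1 normalized CPM from 100 to 500 °Cd and of 73.8, 53.8 and 59.3 at 600 °Cd. In N+S+ grain it held 35.7, 57.1 and 49.5 at 600 °Cd and 34.1, 30.2 and 34.0 at 500 °Cd (log2 fold change 0.55 ± 0.22, edgeR adjusted p = 0.119). TmLoc027741 held 155, 113 and 237 at 600 °Cd and 103, 77.7 and 96.3 at 500 °Cd in N+S+ grain, a log2 difference of 0.87 ± 0.21 (edgeR adjusted p = 0.00869). It was not called without replicate 2 of 500 °Cd (edgeR adjusted p = 0.0544) or replicate 3 of 600 °Cd (edgeR adjusted p = 0.0972).

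N+S+ libraries gave the test of the late rise that the choice of genes did not use. All 106 genes had their highest N+S+ stage mean at 600 °Cd on the authors' scale, and in 82 the mean increased at each step from 300 °Cd on. Of the 13625 genes that passed the expression filter and entered the fit, 35.8% had their highest mean at 600 °Cd and 16.6% increased at each step on TMM CPM (edgeR's library scaling), where 105 and 81 of the members did. Of the 106 genes 105 passed the filter, which asks for 4.045 CPM in 3 libraries. Among these, 8 reached that level in 3 libraries only with those of 600 °Cd. TmLoc031678 did not pass, with 11.9, 17.2 and 0.283 normalized CPM at 600 °Cd against 3.32, 0.457 and 1.89 at 500 °Cd.

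Between 500 and 600 °Cd, within a lane, 55 of the 106 genes rose in N+S+ grain and 0 fell (edgeR adjusted p under 0.05). Among all tested genes 4.16% were called higher at 600 °Cd and 6.04% lower. The fitted log2 fold change was positive in all 105 tested members, with a median of 1.06 and a range of 0.10 to 3.57, against a median of 0 and 49.8% positive over all 13625 genes. It was positive in 102 of 105 without replicate 1 of 600 °Cd. In 69 genes the 3 libraries of 600 °Cd lay above the 3 of 500 °Cd, as in 13.3% of all tested genes. Of the 55 calls 44 were at least 2-fold, and 6 were among the 8 genes that met the filter only through 600 °Cd, which leaves 49 calls among the other 97. With the filter run anew on the libraries before 600 °Cd alone, an alternative chosen after seeing the data, 93 members were tested and 52 called. Over all genes of that fit 590 of 12587 were called higher. With no filter 64 of 106 members were called, and 614 of all 23127 genes. The members called numbered 38 to 62 with single libraries left out, and 30 of the 55 were called in every 1 of the 6 such fits. The count over all genes depends more on single libraries: 567 were called higher, but 250 without replicate 1 or 219 without replicate 3 of 500 °Cd, and 264 without replicate 3 of 600 °Cd.

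Over longer intervals nearly the whole set passed. Against 400 °Cd 99 of the 106 genes were higher at 600 °Cd, with 0 lower, while 15.5% of all tested genes were called higher and 16.9% lower. Against 300 °Cd 104 were higher and 0 lower, while 21.3% of all tested genes were called higher and 21.9% lower. Both counts include the 8 genes that met the filter only through 600 °Cd, which favours a difference. With the filter run on the libraries before 600 °Cd alone, 88 of 93 members were called higher against 400 °Cd and 92 against 300 °Cd. Over all 12587 genes of that fit 2029 and 2777 were called higher. The 3 libraries of 600 °Cd lay above the other 9 N+S+ libraries in 68 of the 106 genes and in 8.99% of all tested genes. Not called against 400 °Cd were TmLoc032150, TmLoc031185, TmLoc041411, TmLoc041954, TmLoc033162 and TmLoc040608, with log2 fold changes of 0.53 to 1.19, and the untested TmLoc031678. The median log2 fold changes of the members were 2.08 and 2.81, and the same with the genes that had no count in the earlier group, 2 at 400 and 3 at 300 °Cd, set at their bounds. Both comparisons cross sequencing lanes, and stage and lane cannot be told apart in them. The 3 comparisons share the libraries of 600 °Cd.

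**Figure D3:**
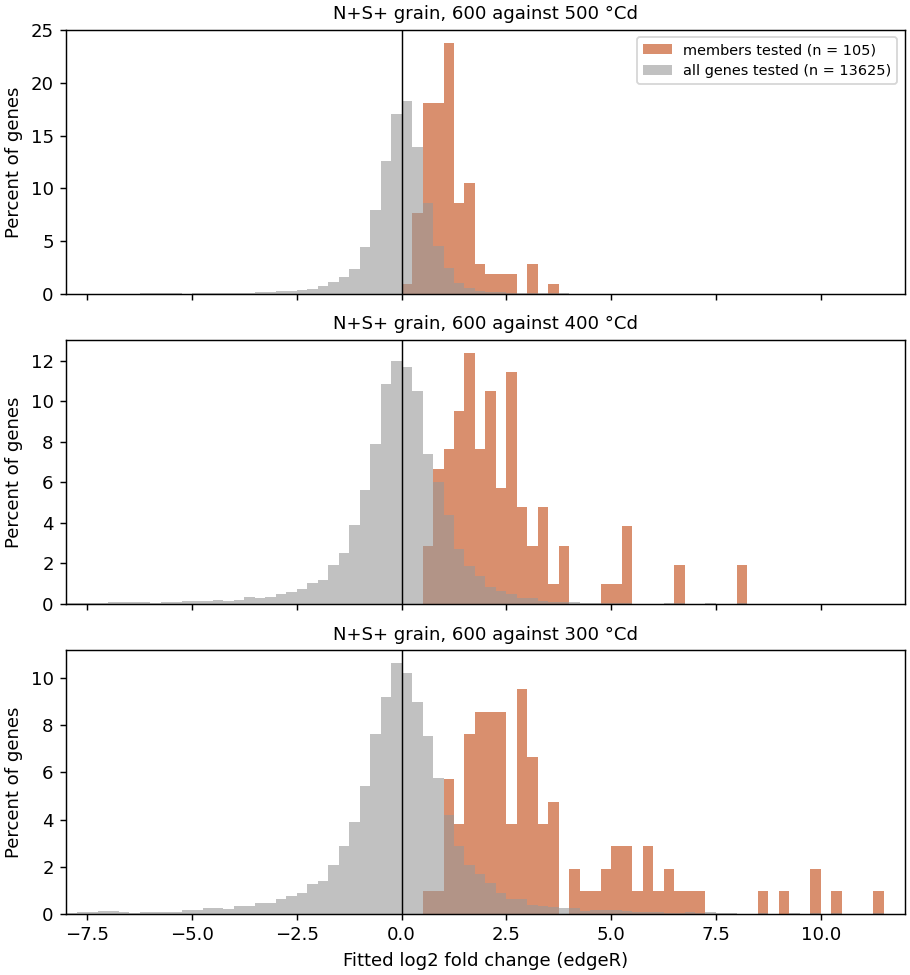
Distribution of fitted log2 fold changes (edgeR) in N+S+ grain for 600 against 500, 400 and 300 °Cd, as percent of the 105 members tested (orange) and of all 13625 genes tested (grey). Members lie to the right of 0 in each panel; values of genes with no count in the earlier group depend on the fit.

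The genes with the smallest steps between 500 and 600 °Cd in N+S+ grain were not called. TmLoc041846 held 404, 190 and 208 normalized CPM at 600 °Cd and 207, 361 and 184 at 500 °Cd, overlapping (log2 fold change 0.10 ± 0.29 SE, edgeR adjusted p = 0.881), and without replicate 1 of 600 °Cd the log2 fold change was -0.32. In N-S- grain, where it was chosen, it held 190, 177 and 90.6 at 600 °Cd and 90.7, 70.2 and 29.4 at 500 °Cd. TmLoc032307 held 174, 124 and 105 at 600 °Cd and 108, 114 and 101 at 500 °Cd in N+S+ grain (0.33 ± 0.23 on the log2 scale, edgeR adjusted p = 0.416), after 10.9, 32.6 and 19.8 at 400 °Cd. Its 500 °Cd mean was 80.1% of its 600 °Cd mean, and against 400 °Cd it was 6.22-fold higher (edgeR adjusted p = 2.82e-08). TmLoc031137, TmLoc040608 and TmLoc031185 had fitted log2 fold changes of 0.30 ± 0.35, 0.29 ± 0.44 and 0.35 ± 0.46 at means of 24.4, 11.5 and 12.7 normalized CPM at 600 °Cd. A p that misses the threshold at such errors does not show that they were level.

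Unfed and fully fed grain were set side by side at 600 °Cd, where both treatments shared a lane, on CPM scaled jointly over the 30 libraries with edgeR's TMM factors. Because N-S- values at 600 °Cd chose the genes, these differences lean towards N-S- and are described without a test. The N-S- mean was the higher in 66 of the 106 genes, against 49.6% of the 13625 genes, and the median log2 ratio of N-S- to N+S+ was 0.10. In 7 genes the 3 N-S- libraries lay above the 3 N+S+ libraries, against 5.5% of tested genes, and in 2 below, against 5.12%. The first is 6.6% of the members, near the share of all tested genes, and the second is 1.89%. The median was -0.00 and -0.01 without replicate 1 of N-S- or replicate 2 of N+S+ grain, and was 0.31 without replicate 3 of N+S+ grain. On log2(CPM + 1), 7 genes were at least 2-fold higher and 2 at least 2-fold lower in N-S- grain. The share of all tested genes beyond 2-fold was not counted.

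TmLoc037404 differed most towards unfed grain, with 496, 186 and 417 CPM in N-S- libraries and 121, 119 and 173 CPM in N+S+ libraries, a ratio of means of 2.66 without overlap. TmLoc028554 was at 285, 172 and 369 CPM in N-S- and at 119, 129 and 117 CPM in N+S+ grain. At 300 °Cd its means were 56.1 ± 5.87 CPM in N-S- and 35.3 ± 3.01 CPM in N+S+ grain (SD, n = 3 each). TmLoc036568 was at 27.6, 26.6 and 31.4 CPM in N-S- and at 12.8, 6.79 and 14.8 CPM in N+S+ grain.

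On the other side stood TmLoc029637, with 149.1, 190.8 and 62.1 CPM in N-S- libraries and 1433, 431 and 161 CPM in N+S+ libraries at 600 °Cd. The groups overlapped, and N+S+ replicate 1 was far above the other 5 libraries. Its N+S+ step from 500 to 600 °Cd was called at 2.55-fold (edgeR adjusted p = 0.0335), but without that replicate the log2 fold change was 0.17 (edgeR adjusted p = 0.769). At 400 °Cd it held 8.00 ± 4.45 CPM in N-S- and 63.0 ± 7.30 CPM in N+S+ grain, and at 300 °Cd 2.77 ± 0.58 and 5.02 ± 0.74 CPM (SD, n = 3 each). TmLoc041846 was at 172, 161 and 82.1 CPM in N-S- and at 466, 221 and 237 CPM in N+S+ grain at 600 °Cd, without overlap, and at 7.0 ± 2.72 against 41.4 ± 23.4 CPM at 300 °Cd. TmLoc033327 was at 33.4, 25.7 and 28.8 CPM in N-S- and at 45.4, 32.1 and 96.8 CPM in N+S+ grain.

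**Figure D4:**
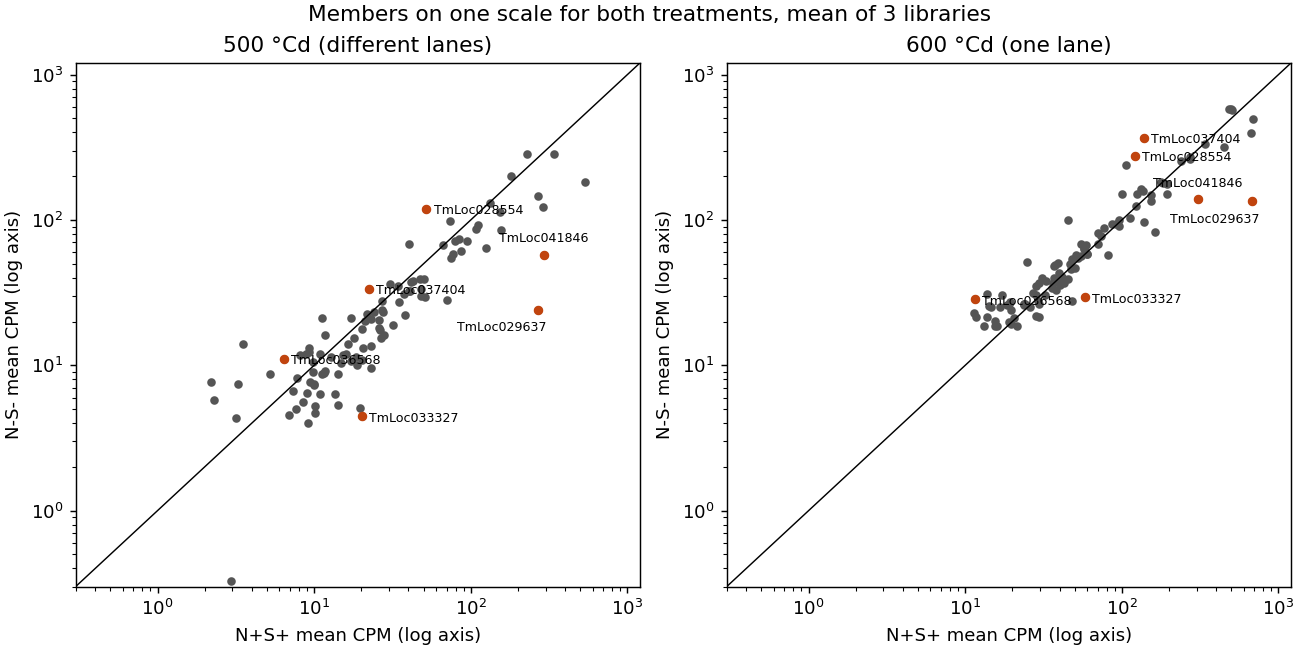
Mean CPM of each of the 106 genes (points, 3 libraries a mean, TMM over 30 libraries, log axes) in N-S- grain (vertical) against N+S+ grain (horizontal) at 500 and 600 °Cd; the line marks equal levels. At 600 °Cd 66 genes lie above the line and at 500 °Cd, where the treatments were on different lanes, 28 do. The choice favoured genes high in N-S- grain at 600 °Cd and low in it at 500 °Cd. Orange points are the 3 genes with the highest and the 3 with the lowest N-S- to N+S+ ratio at 600 °Cd.

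Before 600 °Cd the balance differed by stage. The N-S- mean was the higher in 52 of the 106 genes at 300 °Cd and in 52 at 400 °Cd, but in only 28 at 500 °Cd, where the median log2 ratio was -0.33. Over all 13625 genes the N-S- mean was the higher in 49.0%, 49.2% and 42.2%, with a median log2 ratio of -0.09 at 500 °Cd. At that stage the treatments were on different lanes and the N-S- libraries were those that stood apart, whose part in the difference was not tested. The rule also favoured genes with low N-S- values at 500 °Cd, the second highest N-S- stage in 87 of the 106. The difference at 500 °Cd therefore leans towards N+S+ through the choice of genes. The 500 °Cd mean made up a median of 38.8% of the 600 °Cd mean in N-S- grain, which the rule held below 50%, and 48.3% in N+S+ grain, where it ran from 8.38% to 93.8%.

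The share of all counts that fell on the 106 genes in N-S- grain was 0.18% ± 0.01 at 100 °Cd, 0.14% ± 0.01 at 200, 0.15% ± 0.01 at 300, 0.19% ± 0.01 at 400, 0.38% ± 0.08 at 500 and 0.98% ± 0.15 at 600 °Cd (SD, n = 3 each). In N+S+ grain it was 0.13% ± 0.01 at 300 °Cd, 0.22% ± 0.03 at 400, 0.49% ± 0.10 at 500 and 0.92% ± 0.18 at 600 °Cd. No library of 600 °Cd overlapped 500 °Cd in either treatment, and the treatments overlapped at 600 °Cd. The order of the replicates of 600 °Cd was shared by many of the genes. N-S- replicate 2 was the lowest of its group in 86 of the 106 genes and in 38.3% of the 13625 genes, with a share of 0.81% against 1.05% and 1.09%. N+S+ replicate 2 was the lowest in 65 of the 106 and in 38.6% of the 13625, with 0.72% against 0.99% and 1.05%, and N+S+ replicate 3 was the highest in 75 and in 36.1%.

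**Figure D5:**
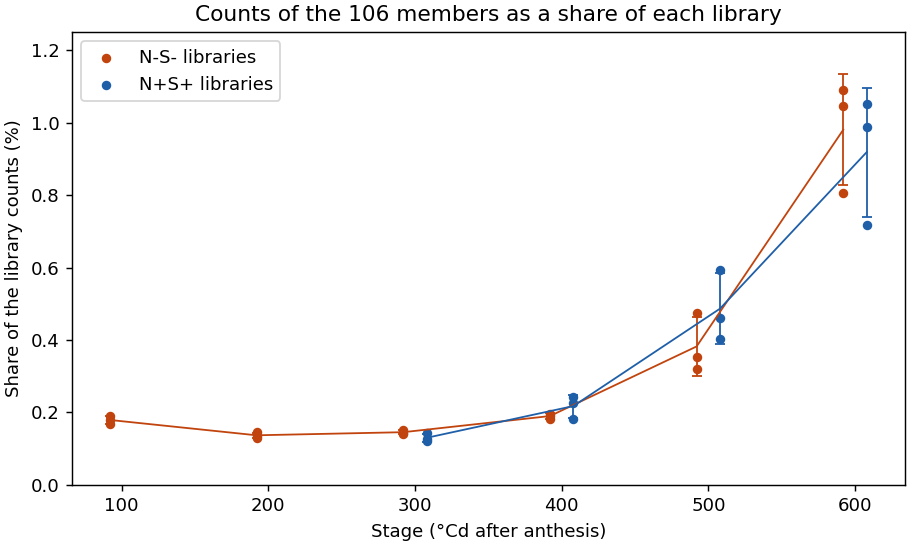
Counts of the 106 genes as a percent of all counts in each library (points) by stage in °Cd, N-S- in orange and N+S+ in blue; lines join means and bars are the SD of 3 libraries. The share stays under 0.25% to 400 °Cd and is 0.72% to 1.09% in the 6 libraries of 600 °Cd. The higher N-S- share at 600 °Cd came with the choice of genes.

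The genes ranged from 132 to 9931 bases in the deposited length, with a median of 2101. The median was 1182 over all accessions and 1470 over the 13739 that were considered. It was 2446 over the 6645 accessions of the whole table with an N-S- mean of at least 20 at 600 °Cd. By median the 106 were thus longer than accessions at large and than those considered. They were not longer than those as abundant as the rule required, which include accessions the rule could not choose. Set per kilobase, the highest N-S- levels at 600 °Cd belonged to short genes. TmLoc039315, of 168 bases, had 2624 normalized CPM per kilobase and TmLoc029637, of 132 bases, 1121. TmLoc039315 held 469, 463 and 390 normalized CPM in N-S- grain at 600 °Cd and 201, 306 and 93.8 at 500 °Cd. Its N+S+ libraries held 851, 531 and 363 at 600 °Cd and 362, 717 and 298 at 500 °Cd, overlapping (log2 fold change 0.35 ± 0.28 SE, edgeR adjusted p = 0.490). In TmLoc039315, TmLoc029637 and TmLoc041846, of 375 bases, N+S+ replicate 1 was the highest library of 600 °Cd. It held that position in 21 of the 106 and in 31.6% of the 13625 genes. This was picked out after the values were seen. Other short members did not share it: in TmLoc039993, TmLoc035446 and TmLoc031270, of 258, 270 and 205 bases, another N+S+ replicate was the highest.

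A few of the genes were neighbours in the numbering, which the sources used here do not tie to map positions. Among the 106 there were 4 pairs whose numbers differed by at most 3. These pairs were picked out after their values were seen. TmLoc028716 and TmLoc028719 had like courses in N+S+ grain. The mean of TmLoc028716 was 97.4 normalized CPM at 600 °Cd and 40.9 at 500 °Cd, and that of TmLoc028719 82.9 at 600 °Cd and 34.7 at 500 °Cd. TmLoc039314 and TmLoc039315, with consecutive numbers, differed in when they moved. TmLoc039314 had means of 10.9, 9.09, 22.4 and 50.0 normalized CPM over the 4 N+S+ stages and TmLoc039315 of 19.1, 173, 459 and 582. How reads shared by overlapping or near-identical loci were counted is not given in the sources used here, so such values are uncertain.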

How the data were processed

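Libraries were strand-specific with paired reads of 125 bases, per the labels' protocols. The submitters' processing notes name BWA 0.7.12-r1039, edgeR and CASAVA 1.8.4 without saying what each did. The reference, counting tool and filters: not given in the sources used here. Per the file headers, the authors deposited a raw count and a normalized CPM for each accession and library; they also hold a length, and a covered length left undefined. Each normalized CPM column, a signal the authors scaled within a table, was the raw count divided by one constant. The implied factors ran from 0.772 to 1.53 over N-S- libraries and from 0.941 to 1.05 over N+S+ libraries, so the 2 tables were not set against each other on that scale.

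The members and lists were chosen with earlier results of these data known. The plan of the comparisons assumed that the cap of 150 members would apply; 106 passed, so the members and accessions next to the ratio limit stand in for those ranked beside the cap. Dropping the 60 accessions over the whole table would add 1 member, TmLoc033206. Named genes are those first and last by ratio, N-S- level, N+S+ step, treatment ratio and share of the 600 °Cd level reached at 500 °Cd. TmLoc031678, the neighbouring pairs and the short genes TmLoc039993 and TmLoc035446 were added after their values were seen.

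Raw counts of the 12 N+S+ libraries were filtered with filterByExpr (minimum count 10), scaled by TMM and fitted with a mean per stage in edgeR 4.0.16 (R 4.3.3) by the quasi-likelihood test, with Benjamini-Hochberg adjustment over 13625 genes and a threshold of 0.05. SEs were derived from the fitted value and its F statistic (size over root F). The model was run on simulated counts with known changes. These were drawn with the model's own fitted spread, so the run checks the code and not how the test behaves on these data. The closest replicates differed by 2.50 times the chi-square that sampling alone gives, so none were merged. Alternatives were DESeq2 1.42.0, DESeq2 size factors in edgeR, TMM without the 60 most abundant accessions, no filter, a fit to 30 libraries or to the 2 stages compared, the replicate number as a block, and each library left out. The N+S- table served only for its identifiers, and the N-S+ table was not used.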

Additional observations from a re-analysis of the deposited data

How the results depend on the processing

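Under every alternative run, members were called higher and none lower at 600 °Cd in N+S+ grain. Against 500 °Cd 45 to 64 were called under the other settings and 38 to 62 with single libraries left out, against 400 °Cd 88 to 101 and 90 to 101, and against 300 °Cd 92 to 105 and 101 to 104. The lowest counts against 400 and 300 °Cd come from the filter on earlier libraries, which tests 93 members. The counts over all genes moved more against 500 °Cd. Those called higher there were 414 to 614 under the other settings. Against 400 °Cd they were 1564 to 2246, and 1739 to 2196 with single libraries left out. Against 300 °Cd they were 2777 to 2935 and 2446 to 2939. Against 500 °Cd 219 to 647 genes were higher and 396 to 934 lower with single libraries left out, and 433 were lower in the fit to the 2 stages compared, from 823. Against 400 °Cd that fit called 1515 lower, from 2299. Genes called higher in that fit were 449 against 500 °Cd, from 567, and 1564 against 400 °Cd, from 2115. It tested 12051 and 11998 genes in place of 13625. The cause of the lower counts was not tested. Of 23 named genes tested, 7 lost the 500 °Cd call under at least 1 setting and 2 gained it. None of the named genes called changed sign, but 3 uncalled ones did with single libraries left out. Their log2 fold changes then ran from -0.061 to 0.63 in TmLoc031137 and from -0.025 to 0.83 in TmLoc039315, both lowest without replicate 1 of 600 °Cd. Those of TmLoc041846 ran from -0.32 without that replicate to 0.45, with -0.03 and -0.08 without replicate 1 and 3 of 500 °Cd.

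The replicate numbers did not pair N+S+ libraries: deviations from stage means correlated at -0.07 to 0.03 between same-numbered libraries, and in 0 of 9 comparisons with 600 °Cd was the own number the best match. With the replicate block, used as a check, 51 members were called higher against 500 °Cd, 99 against 400 °Cd and 102 against 300 °Cd. Over all 13625 genes 507, 2054 and 2814 were called higher.

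The choice of genes depends on the scale. With TMM CPM 100 of the 106 were chosen again, with plain CPM 71, with 5 added in place of 1 79, and with single N-S- libraries left out 79 to 106. Without 500 °Cd, an alternative added after seeing the data, 83 were among 150 chosen. The 66 genes higher in N-S- grain at 600 °Cd were 63 with DESeq2 size factors and 52 to 85 with single libraries left out. Depth limits the lower members: the median count of a member in a library of 600 °Cd was 114.5, and the lowest 1.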
